A study of Mus musculus with 40 samples.

Results

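The genes described here are 8 markers of macrophages and of the complement protein C1q in mouse skeletal muscle: *C1qa*, *C1qb*, *C1qc*, *Csf1r*, *Mrc1*, *Cd163*, *Adgre1* and *Cd68*. They were taken by symbol, and each was found on the array as 1 probe set matched through its Entrez gene identifier, so that the set comprises 8 of 16475 probe sets. The mean signal intensity over all 40 arrays was over 20, the minimum for testing, for 6 of the 8. *Adgre1* (mean 16.4) and *Cd68* (mean 5.78) lay under it, *Cd68* below the array medians of 8.8 to 9.4, and their values are given as a description, with tests taken from a fit of all 16475 probe sets.

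The gastrocnemius and the quadriceps of 20 male mice were each hybridized to 1 Affymetrix array, which gives 40 arrays. The animals were switched at an age of 9 weeks to a low fat run-in diet for 3 weeks and were then fed a low fat diet (LFD, 10 mice) or a high fat diet (HFD, 10 mice) for 8 weeks, to an age of 20 weeks, so that both groups share the run-in diet. The labels spell the strain C56BL/6J, which the methods of the study give as C57BL/6J, and carry no transgene or other treatment. By these methods all mice were fasted and anesthetized before they were killed. The extraction protocol in the labels names the quadriceps for all 40 arrays, and the muscle was taken from the titles and characteristics. The study set out to compare the 2 muscles, and how the diet acts on them. The labels give no batch or scan date, and precision is limited by the 10 arrays in each group.

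Macrophages of adult muscle lie between the fibers and around vessels, and they remove debris and respond to injury. They are maintained by signaling through the receptor encoded by *Csf1r*. C1q, the recognition subunit of the classical complement pathway, is assembled from the A, B and C chains encoded by *C1qa*, *C1qb* and *C1qc*, and in many tissues macrophages are its main source. In RNA of whole muscle, a lower signal from fewer macrophages and one from less RNA per macrophage cannot be told apart.

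The 3 C1q genes are consecutive protein-coding genes on chromosome 4, in the order *C1qb*, *C1qc*, *C1qa*. Because their signals varied together across mice, the 250 bases before the start of *C1qb* (chr4:136886201-136886450, minus strand) and *C1qc* (chr4:136892915-136893164, minus strand) are shown from RefSeq, assembly GRCm38.p6. A window was present in the table for 5 of the 8 genes, not for *C1qa*, *Csf1r* or *Adgre1*. Capitals mark the letters GAGGAA, a purine-rich sequence of the kind bound by the myeloid factor PU.1, which were searched for on both strands; no other motif was searched.
C1qb: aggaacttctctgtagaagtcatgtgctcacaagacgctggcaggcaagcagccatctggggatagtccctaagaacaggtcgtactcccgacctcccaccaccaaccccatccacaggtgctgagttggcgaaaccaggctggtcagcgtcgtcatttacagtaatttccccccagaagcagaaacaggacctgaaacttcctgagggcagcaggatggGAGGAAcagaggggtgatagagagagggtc
C1qc: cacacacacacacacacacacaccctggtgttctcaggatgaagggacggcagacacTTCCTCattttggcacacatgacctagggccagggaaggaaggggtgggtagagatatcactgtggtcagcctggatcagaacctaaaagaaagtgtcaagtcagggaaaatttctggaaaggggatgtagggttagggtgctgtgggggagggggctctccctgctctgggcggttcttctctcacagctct
In *C1qb* the match begins 30 bases before the start on the strand of the gene, and in *C1qc* 193 bases before it on the other strand, so that the strand shown reads TTCCTC. The letters were in 4 of the 5 windows and in 7639 of all 32851 windows of this length (23.3%), and a match describes the sequence and does not show binding. The probe set of *Spi1*, which encodes PU.1, had a mean signal of 6.02, under the minimum for testing.

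The labelled tissue was checked against its markers. All 7 muscle fiber genes of the list were over the minimum, with summed signals from 127908 to 144861 per array. Of 18 general myeloid genes 6 were over it, including *Lyz2* (lysozyme, mean 497), *Ctss* (the lysosomal protease cathepsin S, 179) and *Tyrobp* (a myeloid signaling adaptor, 35.3). *Itgam*, which encodes CD11b, was at 4.29 and *Cx3cr1*, a chemokine receptor, at 3.87. Of 18 genes of resident macrophages 8 were over the minimum, including *Pf4* (platelet factor 4, 307), *F13a1* (the A subunit of coagulation factor XIII, 174) and *Lyve1* (a hyaluronan receptor, 21.9), whereas the probe sets of *Timd4*, *Folr2* and *Vsig4* were at 2.86, 6.19 and 3.75. Defining macrophage genes were therefore partly at the level of background, and the set is named here by its genes rather than as a measure of macrophage number.

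**Figure D1:**
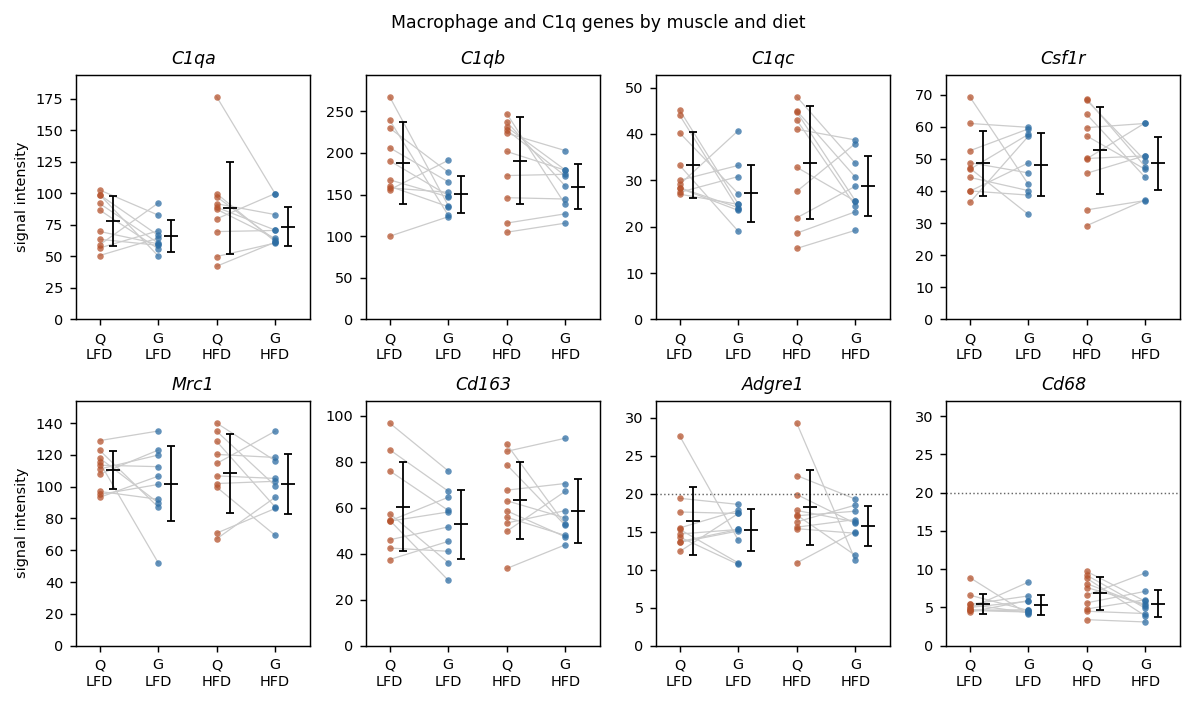
Signal intensity (linear axis from 0) of the 8 genes in the quadriceps (Q, brown) and gastrocnemius (G, blue) of LFD and HFD mice; each point is 1 array, grey lines join the muscles of a mouse, and black marks are the mean ± SD of 10 arrays. The groups of each gene overlap, and the dotted line for Adgre1 and Cd68 is the minimum of 20.

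The *C1qb* signal in the quadriceps of LFD mice ranged from 99.9 to 267 with a median of 179 (mean 187 ± 49.4, SD, n = 10), and in the gastrocnemius from 123 to 191 with a median of 148 (150.2 ± 22.1). In HFD mice it ranged from 105 to 247 with a median of 213 in the quadriceps (191 ± 52.6) and from 116 to 203 with a median of 166 in the gastrocnemius (159 ± 27.3). The muscles overlapped in both diets, the quadriceps arrays were spread over a wider range, and within mice the gastrocnemius was the lower muscle in 8 of 10 LFD and 7 of 10 HFD mice. The gastrocnemius was lower by an estimate of -0.28 on the log2 scale in LFD mice (95% interval -0.57 to 0, limma adjusted p = 0.264) and of -0.22 in HFD mice (-0.54 to 0.10, adjusted p = 0.514). These differences did not pass the test.

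*C1qc* ranged from 27.0 to 45.1 (median 29.6, mean 33.3 ± 7.10) in the quadriceps and from 19.0 to 40.7 (median 24.9, mean 27.2 ± 6.19) in the gastrocnemius of LFD mice, so that 1 end of the gastrocnemius range was near the testing minimum. In HFD mice it ranged from 15.3 to 48.0 (median 36.9, mean 33.8 ± 12.2) and from 19.2 to 38.7 (median 27.2, mean 28.8 ± 6.43). The gastrocnemius was the lower muscle in 7 LFD and 6 HFD mice, and the groups overlapped. The estimate for LFD mice, -0.30 (-0.56 to -0.03), had an unadjusted p of 0.03 and a limma adjusted p of 0.195, and that for HFD mice was -0.16 (-0.58 to 0.26, adjusted p = 0.768).

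*C1qa* was measured between 50.7 and 102.7 (median 78.3, mean 77.9 ± 20.0) in the quadriceps and between 50.4 and 92.3 (median 62.6, mean 66.2 ± 12.7) in the gastrocnemius of LFD mice. In HFD mice the range was 42.2 to 177 (median 88.2, mean 88.4 ± 36.6) in the quadriceps and 60.6 to 99.9 (median 67.5, mean 73.5 ± 15.4) in the gastrocnemius. The quadriceps of mouse 149 (177) stood far above the other HFD arrays, and the groups overlapped in both diets. The log2 difference between gastrocnemius and quadriceps was -0.21 (-0.50 to 0.08, limma adjusted p = 0.46) in LFD and -0.19 (-0.58 to 0.20, adjusted p = 0.689) in HFD mice, and did not pass the test in either.

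*Csf1r*, the receptor for the growth factors CSF-1 and IL-34, ranged from 36.4 to 69.3 (median 46.9) in the quadriceps and from 32.7 to 59.8 (median 47.2) in the gastrocnemius of LFD mice. In HFD mice it ranged from 29.2 to 68.6 (median 53.6) and from 37.0 to 61.2 (median 48.5). Its muscle difference was the smallest of the 6 tested genes in LFD mice, at -0.01 on the log2 scale (-0.27 to 0.25, limma adjusted p = 0.977), and it was -0.08 (-0.38 to 0.22, adjusted p = 0.852) in HFD mice. Among 20 mice the gastrocnemius was lower in 10 and higher in 10. Its ligands *Csf1* and *Il34* had mean signals of 9.68 and 3.3, and none of the 7 genes of the colony-stimulating factor list was over the minimum.

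*Mrc1*, the mannose receptor CD206, ranged from 93.3 to 129 (median 112) in the quadriceps and from 52.2 to 135 (median 104) in the gastrocnemius of LFD mice, where mouse 156 was the lowest. In HFD mice it ranged from 67.2 to 140.0 (median 111) and from 69.4 to 135 (median 102). *Cd163*, the scavenger receptor for hemoglobin bound to haptoglobin, ranged from 37.5 to 96.9 (median 54.5) and from 28.5 to 76.1 (median 55.0) in LFD mice, and from 33.6 to 87.7 (median 60.9) and from 43.9 to 90.3 (median 54.2) in HFD mice. The muscles overlapped for both genes. The log2 differences of *Mrc1* were -0.15 (-0.41 to 0.11, limma adjusted p = 0.595) and -0.08 (-0.36 to 0.20, adjusted p = 0.848) in LFD and HFD mice, and those of *Cd163* -0.19 (-0.58 to 0.19, adjusted p = 0.647) and -0.09 (-0.41 to 0.23, adjusted p = 0.848). Within LFD mice *Mrc1* was lower in the gastrocnemius in 5 and higher in 5, with a median difference of 0.03. Single mice weighed on these estimates. With each mouse left out in turn, *Mrc1* ranged from -0.18 to -0.04 in LFD mice (the latter without mouse 156) and from -0.14 to -0.03 in HFD mice (143 and 158), and *Cd163* from -0.24 to -0.11 (141 and 156) and from -0.15 to -0.02 (151 and 158).

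*Adgre1*, which encodes the surface protein F4/80, ranged from 12.4 to 27.6 (median 15.0) in the quadriceps and from 10.7 to 18.6 (median 15.3) in the gastrocnemius of LFD mice, and from 10.9 to 29.3 (median 17.2) and from 11.3 to 19.3 (median 16.2) in HFD mice. *Cd68*, a glycoprotein of macrophage lysosomes, ranged from 4.4 to 8.9 (median 4.95) and from 4.1 to 8.3 (median 4.65) in LFD mice, and from 3.4 to 9.7 (median 7.1) and from 3.1 to 9.5 (median 5.3) in HFD mice. At these signals a difference between groups depends on the background. In the fit of all probe sets the log2 muscle differences were -0.09 and -0.18 for *Adgre1* (limma adjusted p = 0.833 and 0.648) and -0.04 and -0.30 for *Cd68* (adjusted p = 0.944 and 0.599) in LFD and HFD mice.

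Genes with a fold change over 1.3 and a false discovery rate (FDR) under 0.05 count as called. By limma, 0 of the 6 tested genes were called between the muscles of LFD mice, where 2.52% of all 6479 tested probe sets were, and 0 of 6 in HFD mice, where 3.46% were. At an unadjusted p under 0.05 there was 1 of 6 in LFD mice (*C1qc*), against 19% of all probe sets, and 0 of 6 in HFD mice, against 18.7%. The estimate lay below 0 for all 6 in both diets, with a median of -0.20 in LFD and -0.13 in HFD mice as compared to -0.01 and -0.02 over all tested probe sets. With each mouse left out, the C1q estimates kept their sign and ranged in LFD mice from -0.31 to -0.13 (*C1qa*), -0.35 to -0.21 (*C1qb*) and -0.38 to -0.23 (*C1qc*), and in HFD mice from -0.27 to -0.12, -0.26 to -0.15 and -0.23 to -0.09. The genes vary together across arrays, so that their shared sign does not count as 6 separate observations.

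With the diets averaged (40 arrays), the gastrocnemius was again the lower muscle in estimate for the 6 genes, with a median of -0.17 as compared to -0.01 over all tested probe sets. None was called by limma (0 of 6, against 3.75% of all probe sets), and 1 of 6 (*C1qb*) had an unadjusted p under 0.05, against 28% of all probe sets. *C1qb* had a ratio of gastrocnemius to quadriceps of 0.839 (95% interval 0.723 to 0.974, adjusted p = 0.0996), and its signal in the gastrocnemius was the lower one in 15 of 20 mice. As the muscles come from the same mice, a fit with the mouse as a fixed block was also made. There the adjusted p of *C1qb* was 0.028, the only one of the 6 genes under 0.05, and its fold change stayed under the threshold. The share of all probe sets under 0.05 in the blocked fit is not given here, so that this p does not single out *C1qb*. Without a block 0 of 6 passed the FDR alone, against 18% of all probe sets. With the mouse as a random block the adjusted p was 0.0525, and it was 0.0485 with array weights and 0.0395 without mouse 141.

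**Figure D2:**
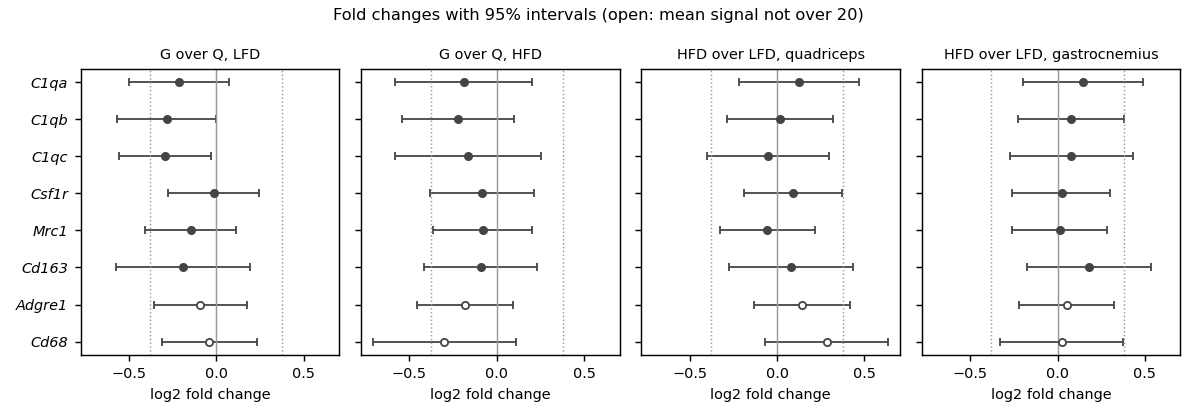
Log2 fold changes (points) with 95% intervals (bars) from limma for the gastrocnemius over the quadriceps (G over Q) in each diet and for HFD over LFD in each muscle; dotted lines are a fold change of 1.3 and open points are genes with a mean signal not over 20. The points of the muscle comparisons lie at or below 0, those of the diet comparisons within 0.30 of it, and C1qc in LFD mice is the gene whose interval leaves 0 out.

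HFD and LFD mice were compared within each muscle, and as 0 of the 6 genes were called by limma in either, the values are given as limits. In the quadriceps the log2 estimates were 0.12 for *C1qa*, 0.02 for *C1qb*, -0.05 for *C1qc*, 0.09 for *Csf1r*, -0.05 for *Mrc1* and 0.08 for *Cd163* (limma adjusted p = 0.998 for each), where 0.0617% of all tested probe sets were called. In the gastrocnemius they were 0.15, 0.08, 0.08, 0.02, 0.01 and 0.18 in the same order (adjusted p from 0.885 to 0.995), where 0.216% were called. No gene of the set had an unadjusted p under 0.05 in either muscle, against 5.68% and 8.97% of all probe sets. The 95% intervals of the ratio of HFD to LFD spanned at most 0.757 to 1.383 in the quadriceps and 0.829 to 1.447 for the gastrocnemius, so that larger changes in the group means lie outside them. Below the testing minimum, *Cd68* in the quadriceps had an estimate of 0.28 (-0.07 to 0.64, adjusted p = 0.969).

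Whether the diet effect differed between the muscles was tested as an interaction. The estimates for the 6 genes ranged from -0.07 (*Csf1r*) to 0.13 (*C1qc*) on the log2 scale, with limma adjusted p = 1 for each, and 0 of 6 were called (0% of all tested probe sets). At an unadjusted p under 0.05 there were 0 of 6, against 1.82% of all. The intervals were wide, from a ratio of ratios of 0.724 to 1.544.

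The set varied more between the arrays of a group than most genes did. The residual SD on the log2 scale, after subtraction of the group means, was 0.32 for *Csf1r*, 0.41 for *Cd163*, 0.31 for *Mrc1*, 0.39 for *C1qa*, 0.35 for *C1qb* and 0.40 for *C1qc*. These lie between the percentiles 86.2 (*Mrc1*) and 94.5 (*Cd163*) of all tested probe sets. In simulated data with the spread of these arrays, the test of the muscle difference in LFD mice recovered 92% of genes changed 1.5-fold. This is an average over genes most of which vary less. The simulated arrays were independent, without the pairing of muscles by mouse. The LFD estimates of the set were smaller than 1.5-fold, so that the share recovered does not apply to them.

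Deviations were shared by the genes of an array. In the quadriceps of HFD mice, mouse 143 had the lowest signal for 8 of 8 genes and mouse 144 was among the 2 lowest for 7 of 8. There *C1qb* was 104.7 in mouse 143 and 116 in mouse 144, as compared to 146 to 247 in the other mice of the group, and *Csf1r* was 29.2 and 34.1 as compared to 45.5 to 68.6. In the gastrocnemius of the same diet these mice were among the 2 lowest for 6 and 5 of 8 genes, and mouse 149 was among the 2 highest for 8 of 8. Mouse 150 was among the 2 highest for 7 of 8 genes in the quadriceps.

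Other cell markers also deviated on these arrays. In the quadriceps of mouse 143 the mean deviation from the group was -0.86 on the log2 scale for the 6 genes, -0.98 for the myeloid list, -0.46 for resident macrophages, -0.50 for MHC class II genes, -0.20 for fibroblasts, 0.12 for endothelium and 0.04 for muscle fibers. In that of mouse 144 it was -0.54, -0.70, -0.31, -0.45, -0.28, -0.04 and 0.03 in the same order. For mice 143 and 144 the deviation was -0.56 and -1.21 for adipocytes and -0.40 and -0.94 for the 2 tested osteoclast and bone genes. It was -1.23 and -1.44 for the mean of the 2 tested genes of the inflammatory list, *Spp1* and *Lpl*. Of these *Spp1* varied more (standard error of the log2 diet difference in the quadriceps 0.675, as compared to 0.073 for *Lpl*). The deviation was -1.45 and -1.14 for *Alas2*, an erythroid gene and the only tested one of the B cell and erythroid list. The deviation of the neutrophil genes was -3.18 and -3.09, from a group mean that includes arrays with summed neutrophil signals of up to 13524. The summed signals of mice 143 and 144 were 47.7 and 48.9, within the range of the gastrocnemius arrays (45.9 to 57.3). These deviations therefore show the high arrays of the group and not a deficit on those of mice 143 and 144. The inflammatory genes, *Alas2* and the neutrophil genes also lay below the group mean in the quadriceps of HFD mice 151 and 158. There they deviated by -1.47 and -1.37, -1.39 and -1.35, and -2.80 and -2.99 in this order. The 6 genes deviated by -0.05 and 0.39 on those arrays. The muscle fiber genes thus differed little from the group on the arrays of mice 143 and 144. Without mouse 143 the log2 diet difference in the quadriceps was 0.23 for *C1qa*, 0.18 for *Csf1r* and 0.02 for *Mrc1*, and without mouse 144 it was 0.21, 0.16 and 0.01, and none was called.

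**Figure D3:**
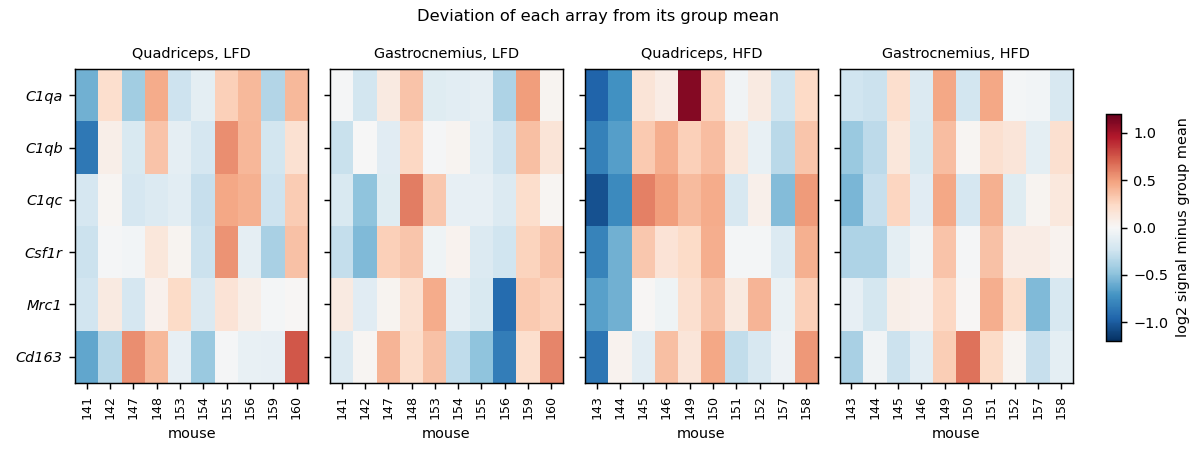
Log2 signal minus the mean of its group for the 6 tested genes (rows) on each array (columns, by mouse number); red is above and blue below the group mean. Columns tend to take 1 color, and mice 143 and 144 are the bluest columns of the HFD quadriceps.

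Neutrophil genes differed widely between arrays, and 6 of the 10 on the array were over the minimum. Their summed signal was 45.9 to 57.3 on all 20 gastrocnemius arrays. In the quadriceps it was between 764.5 and 2623 in 4 LFD mice (148, 153, 155 and 160) and 47.7 to 57.8 in the other 6, and between 1202 and 13524 in 6 HFD mice (145, 146, 149, 150, 152 and 157) and 47.7 to 58.9 in the other 4. Mice 143 and 144 belonged to the latter. In LFD mice the quadriceps signal of *C1qb* was 229.8, 168, 267 and 206 on the 4 arrays named, and 99.9, 191, 159.9, 158, 239 and 156 on the other 6. In HFD mice it was 228, 247, 224, 238, 173 and 146 on the 6 arrays named, and 104.7, 116, 202 and 231 on the other 4. The lowest *C1qb* signals of each diet were thus on arrays of low neutrophil signal, and the values overlapped. The part of neutrophils in the differences between muscles and mice was not tested.

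Whether the 3 chains vary together was tested within each group, with 3 pairs in 4 groups and 12 tests in all. Pearson's r of the log2 signals ranged from 0.598 to 0.963, and 10 of the 12 had an adjusted p under 0.05 in a two-sided permutation test. The highest was *C1qb* with *C1qc* in the quadriceps of HFD mice (r = 0.963, permutation p = 7e-05, adjusted p = 0.00084, Spearman's rho = 0.879, permutation p = 0.00172, adjusted p = 0.00885), and without the mice farthest from the median (143 and 144) r was 0.898. *C1qa* with *C1qb* reached r = 0.888 in the quadriceps of LFD mice (permutation p = 0.00022, adjusted p = 0.00132, rho = 0.855, permutation p = 0.00295, adjusted p = 0.00885), and 0.858 without mice 141 and 147. The pairs that did not pass were *C1qa* with *C1qc* (r = 0.613, permutation p = 0.061, adjusted p = 0.065, rho = 0.515, permutation p = 0.133, adjusted p = 0.145) and *C1qb* with *C1qc* (r = 0.598, permutation p = 0.065, adjusted p = 0.065, rho = 0.648, permutation p = 0.049, adjusted p = 0.0654) in the gastrocnemius of LFD mice.

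Without the 2 mice farthest from the median, 4 of the 12 kept an adjusted p under 0.05, each of them in the quadriceps. These were *C1qa* with *C1qb* in both diets, and *C1qa* with *C1qc* and *C1qb* with *C1qc* in HFD mice. In the gastrocnemius of LFD mice *C1qa* with *C1qb* fell from r = 0.748 to 0.226 without mice 148 and 159, so that this relation rests on those mice.

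As a description over all 40 arrays, after subtraction of the group means, the 15 pairs among the 6 tested genes had r from 0.442 (*Cd163* with *C1qc*) to 0.829 (*Csf1r* with *C1qc*), with a median of 0.623. The arrays share a normalization, and each mouse contributed 2. Over all tested probe sets the median r with a given gene of the set lay between -0.04 (*C1qa*) and 0.03 (*Csf1r*). *Cd163* was the gene least like the others, with r between 0.442 and 0.608.

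The probe sets most like each gene were ranked in the same way. Nearest to *C1qb* were *Ctss* (r = 0.908), *Grn* (progranulin, 0.863), *Ccl6* (a chemokine, 0.829), *Pltp* (phospholipid transfer protein, 0.827) and *Pcolce* (an enhancer of procollagen processing, 0.826). Nearest to *C1qa* were *F13a1* (0.822), *C1qb* (0.812), *Pf4* (0.795), *Fn1* (fibronectin, 0.772) and *C1qc* (0.77). *C1qc* was followed by *Csf1r* (0.829), *C1qb* (0.82), *Pf4* (0.783), *F13a1* (0.782) and *C1qa* (0.77).

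For *Csf1r* the nearest were *C1qc* (0.829), *Pf4* (0.824), *Ctss* (0.816), *F13a1* (0.812) and *Ndufa10* (a subunit of respiratory complex I, 0.806). *Mrc1* was nearest to *F13a1* (0.703), *Ugdh* (UDP-glucose dehydrogenase, 0.689), *Plat* (tissue plasminogen activator, 0.67), *C1qa* (0.644) and *Csf1r* (0.623). *Cd163* had none of the set or of the macrophage lists among its nearest, which were *Kcna5* (a potassium channel, 0.694), *S100a10* (0.689), *Cebpb* (a transcription factor, 0.685), *Ogn* (osteoglycin, 0.682) and *Lnx1* (a ubiquitin ligase, 0.678).

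Whether a mouse with a high signal in one muscle also had it in the other was tested for the 6 genes in each diet (12 tests). None passed (0 with an adjusted p under 0.05, permutation test), and 1 of 12 had an unadjusted p under 0.05. This was *C1qb* in HFD mice (r = 0.726, permutation p = 0.0182, adjusted p = 0.218, rho = 0.382, permutation p = 0.28, adjusted p = 0.66). Without mice 143 and 144 r was 0.169, so that the relation rests on them. *Csf1r* in HFD mice turned from r = 0.575 (permutation p = 0.0813, adjusted p = 0.278, rho = 0.188, permutation p = 0.608, adjusted p = 0.811) to -0.394 without the same mice. In LFD mice r was between -0.271 (*C1qc*, permutation p = 0.451, adjusted p = 0.673, rho = -0.0667, permutation p = 0.864, adjusted p = 0.942) and 0.569 (*Cd163*, permutation p = 0.085, adjusted p = 0.278, rho = 0.527, permutation p = 0.124, adjusted p = 0.66), and the latter was 0.202 without mice 147 and 160.

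**Figure D4:**
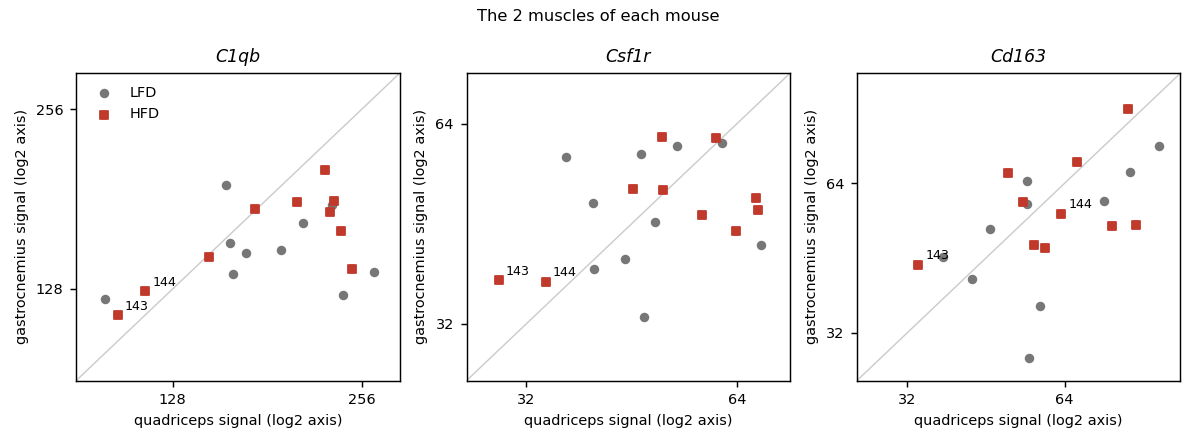
Quadriceps signal (x axis) against gastrocnemius signal (y axis) of the same mouse for 3 of the genes, both on log2 axes, with 1 point for each of 10 LFD (grey) and 10 HFD (red) mice and the line of equal signal. HFD mice 143 and 144, which are labelled, lie at the low end of both axes for C1qb and Csf1r.

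Of 18 further complement components 16 were on the array and 3 were over the minimum. In each diet 1 of these 3 was called, against 2.52% (LFD) and 3.46% (HFD) of all tested probe sets, and it was lower in the gastrocnemius. This was *C3*, the central component on which the complement pathways converge, with signals of 514 ± 89.0 for the quadriceps and 346 ± 72.8 for the gastrocnemius of LFD mice (log2 difference -0.59, limma adjusted p = 0.00859) and 529 ± 75.1 and 324 ± 91.4 in HFD mice (-0.74, adjusted p = 0.000908). *Cfd*, the protease adipsin of the alternative pathway and a product of adipocytes, was called with the diets averaged (-0.77, adjusted p = 0.00497). *C1s1*, the classical pathway protease that C1q activates together with C1r, did not pass (-0.31, adjusted p = 0.163 in LFD and -0.11, adjusted p = 0.812 in HFD mice). All 3 estimates lay below 0 in both diets.

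Of 11 regulators 8 were tested, with medians of 0.06 and 0.02 in LFD and HFD mice. *Clu*, clusterin, an inhibitor of the terminal complex, was lower in the gastrocnemius (-0.68, limma adjusted p = 0.00511, and -0.83, adjusted p = 5.6e-06). *Cd55*, the decay-accelerating factor that protects cells from C3 convertases, was higher there in HFD mice (0.44, adjusted p = 0.0173) and at 0.37 (adjusted p = 0.108) in LFD mice. *Cd59a*, which blocks the membrane attack complex, had an estimate of 0.36 in HFD mice (adjusted p = 0.0138) under the fold threshold. None of the 3 tested receptors (*Cd93*, *Calr* and *Lrp1*) was called by limma in either diet, against 2.52% (LFD) and 3.46% (HFD) of all tested probe sets. Of these receptors *Cd93* in HFD mice had an unadjusted p under 0.05 (0.025), as had 18.7% of all probe sets.

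Of the 8 tested genes of resident macrophages 1 was called in each diet, against 2.52% (LFD) and 3.46% (HFD) of all tested probe sets. In each diet 7 of 8 estimates lay below 0 (medians -0.20 and -0.15). The called gene, *Cbr2*, a carbonyl reductase, was higher in the gastrocnemius (0.45, limma adjusted p = 0.0351 in LFD and 0.58, adjusted p = 0.000178 in HFD mice), opposite in sign to the C1q genes. With the diets averaged, *F13a1* (-0.37, adjusted p = 0.00273) and *Lyve1* (-0.26, adjusted p = 0.0351) passed the FDR but not the fold threshold. Of all tested probe sets 18% passed the FDR alone in that comparison, in either direction, and the mean signal of *Lyve1* was close to the testing minimum. None of the 6 tested myeloid genes was called by limma in either diet, with all 6 estimates below 0 and medians of -0.20 and -0.38. At an unadjusted p under 0.05 were *Fcgr3* (0.0434) and *Lyz2* (0.0441) in LFD and *Tyrobp* (0.041) in HFD mice, against 19% and 18.7% of all probe sets. With the diets averaged *Lyz2* (-0.34) reached the FDR threshold (adjusted p = 0.05 after rounding), as did 18% of all probe sets, but not the fold threshold.

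**Figure D5:**
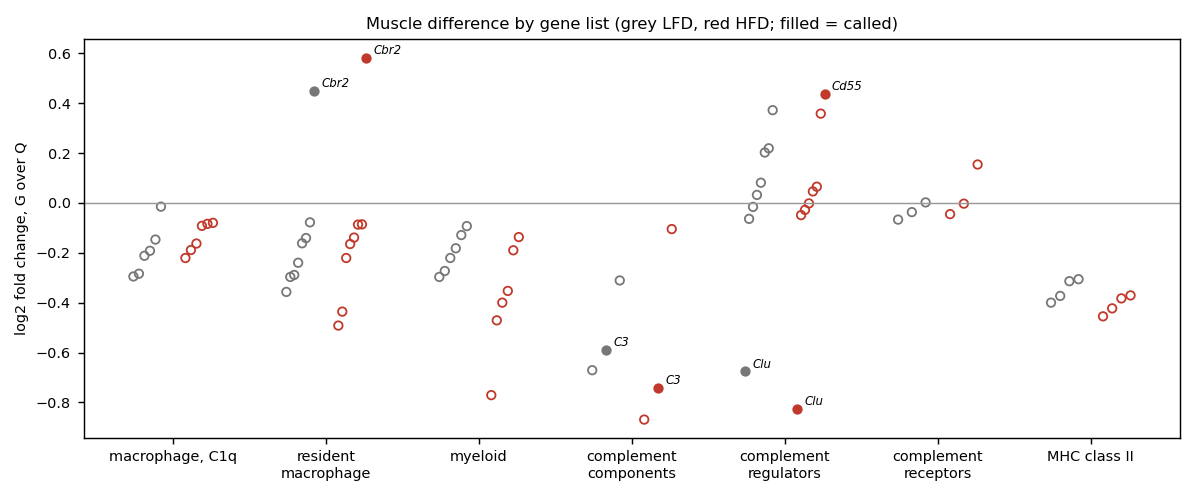
Log2 fold change of the gastrocnemius over the quadriceps (G over Q) for each tested gene of 7 lists, in LFD (grey) and HFD (red) mice; filled points were called (fold change over 1.3 and FDR under 0.05) and are named. C3 and Clu lie below and Cbr2 and Cd55 above 0, and the macrophage and C1q genes lie between -0.30 and 0 with none called.

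Markers of other cells also differed between the muscles. With the diets averaged, 3.75% of all tested probe sets were called in either direction. Of 4 tested MHC class II genes 2 were called lower in the gastrocnemius (*H2-Eb1* at -0.43 and *Cd74* at -0.40, limma adjusted p = 0.00844 and 0.00919). So were 3 of 5 adipocyte genes (median -0.84), and 4 of 4 Schwann cell genes were called higher (median 1.21). No count is given for the neutrophil genes, since those tested had gastrocnemius means of 3.71 to 8.55, near background, and were over the minimum only through the quadriceps. Of 6 fibroblast genes 3 were lower at the FDR alone, including *Col3a1* (-0.38, limma adjusted p = 6.94e-05), where 18% of all probe sets passed in either direction. The part of these cells in the estimates of the C1q genes was not tested. For the diet, limma called 0 of the 28 tested genes of the myeloid, resident macrophage and complement lists in either muscle. Of all probe sets it called 0.0617% in the quadriceps and 0.216% in the gastrocnemius. At an unadjusted p under 0.05 were 2 of the 28 in the quadriceps (5.68% of all probe sets) and 5 in the gastrocnemius (8.97%). The smallest adjusted p-values were those of *Cbr2* in the quadriceps (-0.44, adjusted p = 0.101) and of *Cd93*, once described as a C1q receptor, in the gastrocnemius (0.20, adjusted p = 0.181). Of 20 inflammatory genes 2 were over the minimum (*Spp1* and *Lpl*), and *Tnf* (mean 8.05), *Il1b* (4.96) and *Ccl2* (4.91) had signals near or below the array medians.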

How the data were processed

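The authors assigned probes to Entrez genes (1 probe set each), normalized the arrays by quantiles and estimated expression with GC-RMA (version not given in the sources used here), and deposited signal intensities on a linear scale. Of 16539 probe sets 64 controls were left out. Members were matched to RefSeq symbols. Intensities were transformed to log2 without a pseudocount, and probe sets with a mean signal over 20 across 40 arrays (6479) were tested (R 4.3.3, limma 3.58.1), the muscles within each diet (20 arrays) and the others in a model of the 4 groups (40 arrays). P-values were adjusted by Benjamini-Hochberg over all tested probe sets. Fold changes are ratios of geometric means. The diet comparisons and the interaction share arrays with the muscle comparisons.

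The mouse number in the labels pairs the 2 muscles, since they come from 1 animal. Deviations from the group means had a median correlation of 0.388 within and -0.053 between LFD mice, and of -0.069 and -0.006 for HFD mice. By these medians the muscles of 1 mouse were more alike than those of different mice in LFD but not in HFD mice. The methods of the study give moderated linear models and name no mouse block, so that the tests had none and blocked fits were alternatives. The other alternatives were signal filters, a repeated quantile normalization, log2(value + 16), other variance models, array weights, the FDR alone and leaving out each mouse. Correlations were tested with 100000 permutations. No 2 arrays were identical (correlation 0.985 to 0.9966), and the share of probe sets over 20 was 38.4% to 39.5% per array. Tests were checked on simulated data.

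Members and gene lists were chosen with earlier results of these data known. Named are the 8 members, of each other list the called genes and up to 4 with the smallest adjusted p, and the 5 probe sets most correlated with each tested member. Other genes (*Spi1*, *Itgam*, *Cx3cr1*, *Timd4*, *Folr2*, *Vsig4*, *Csf1*, *Il34* and the cytokines) were named for their signals under the minimum. Protein sequences were not used here. Correlations and figures were made in Python 3.11.15 (scipy 1.17.1, numpy 2.4.6, matplotlib 3.10.9, pandas 2.3.3).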

Additional observations from a re-analysis of the deposited data

Results flagged for a closer look

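In 3 of 32 groups of 10 arrays (8 genes in 4 groups), 1 array lay farther from its nearest neighbor, relative to the range of the group, than the 95% limit of Dixon's test for 10 values. The limit was applied to the linear signals, whereas the fits used log2 values, and it was not applied on the log2 scale. For normally distributed values about 1 in 20 groups would pass it by chance. Linear signals need not follow that distribution, and the genes vary together, so that the count is not read as an excess. *C1qa* in the quadriceps of HFD mouse 149 was 176.7 (gap of 0.572 of the range). Without this mouse the log2 diet difference of *C1qa* in the quadriceps was 0.002 in place of 0.124, the largest of the set there, and its muscle difference in HFD mice was -0.12 in place of -0.19, with no call in either case. *Adgre1* in the quadriceps of LFD mouse 148 was 27.6 (gap of 0.539), and *Cd68* in that of LFD mouse 160 was 8.9 (gap of 0.511), both genes with a mean signal under the minimum for testing. Without these mice the log2 muscle differences in LFD mice were 0.01 for *Adgre1* and 0.08 for *Cd68*, in place of -0.09 and -0.04.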

How the results depend on the processing

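Of the 6 tested genes 0 were called in each of the 6 comparisons by limma under all 153 alternatives. Those with a filter of a mean signal over 50 did not test *Csf1r* (mean 49.5) and *C1qc* (mean 30.76). Without the alternatives, 1 of 6 had an unadjusted p under 0.05 for the muscles of LFD mice and with the diets averaged. In the other comparisons there were 0 of 6. Fits in which the mouse was a block, fixed or random, gave the same estimates, all under the fold threshold. No call on the muscles or the diet could therefore change in them. In the interaction, called by the FDR alone, they called none either. *C1qb* with the diets averaged had adjusted p-values from 0.028 to 0.197 over its alternatives. The number of all probe sets called moved by over 1.5 times at the FDR alone, to 338 in LFD and 429 in HFD mice and 1164 with the diets averaged for the muscles, and to 12 in the quadriceps and 44 in the gastrocnemius for the diet (from 163, 224, 243, 4 and 14). It was 375 with the diets averaged and no signal filter, and 2 in the quadriceps and 46 in the gastrocnemius for the diet with array weights. With each mouse left out in turn it was 1 to 10 for the diet in the quadriceps and 9 to 19 in the gastrocnemius.

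Estimates near 0 changed sign without passing the test. With array weights the log2 muscle difference of *Csf1r* in LFD mice was 0.086. The diet difference in the quadriceps was 0.03 for *C1qc*, and in the gastrocnemius it was -0.106 for *Csf1r*, -0.063 for *Mrc1* and -0.023 for *Adgre1*. The interaction was -0.037 for *Mrc1*, -0.084 for *C1qa*, -0.024 for *C1qb* and -0.009 for *C1qc*. With each mouse left out, the muscle difference in LFD mice ranged from -0.088 to 0.064 for *Csf1r*, -0.156 to 0.008 for *Adgre1* and -0.129 to 0.08 for *Cd68*. The diet difference in the quadriceps ranged from -0.1 to 0.018 for *Mrc1*, -0.079 to 0.106 for *C1qb* and -0.119 to 0.064 for *C1qc*, and in the gastrocnemius from -0.036 to 0.064 for *Csf1r*, -0.091 to 0.07 for *Mrc1*, -0.002 to 0.103 for *Adgre1* and -0.071 to 0.108 for *Cd68*. The interaction ranged from -0.147 to 0.004 for *Csf1r*, -0.044 to 0.119 for *Mrc1*, -0.062 to 0.118 for *C1qa*, -0.014 to 0.131 for *C1qb* and -0.191 to 0.041 for *Adgre1*. The cause of these changes was not tested.

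Of the 12 correlations of C1q chains, 4 in place of 10 passed without the 2 mice farthest from the median, a fit of fewer mice. Correlations between the muscles that changed sign were *Csf1r* in HFD mice (-0.394 without these 2 mice), *Mrc1* in LFD mice (0.0578 on the linear scale and 0.0671 without 2 mice), *C1qb* in LFD mice (Spearman's rho -0.0182, and -0.175 without 2 mice) and *C1qc* in HFD mice (-0.0703 without 2 mice), none of which passed in either form. Signals of *Adgre1* and *Cd68* near background limit what their differences show, and 10 arrays a group limit the precision of all estimates.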
